A study of Homo sapiens with 10 samples.

Results

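The EGR and NR4A immediate early genes are described here through 8 genes, EGR1, EGR2, EGR3, EGR4, NR4A1, NR4A2, NR4A3 and ARC, taken by symbol from a table of 46427 genes. All 8 were found in the table, and 7 of them had enough counts for a test. They were measured by RNA sequencing in ReNcell VM, a human neural progenitor line that was immortalised, grown as neurospheres for 4 days and then differentiated on laminin for 6 days. Medium and test substances were renewed every 2 days, and each library pooled 6 neurospheres. The 10 libraries formed 5 groups of 2. The controls received the vehicle alone (0.1% DMSO), and the other groups DEP, DProP, DPP or Mix, a mixture, each labelled 100 µM. DEP is diethyl phthalate. DProP commonly abbreviates di-n-propyl phthalate, whose alkyl chains are longer than those of DEP. DPP stands for several phthalates in general use, so its structure is not named here, and what Mix was made of was not given in the sources used here. All cells are of 1 immortalised line, and no label says whether the 2 libraries of a group were separate cultures, so the p-values reflect only how far these libraries spread, which may be technical.

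Immediate early genes are transcribed within minutes of a stimulus such as a growth factor, depolarisation or stress, through kinases that act on transcription factors already present in the cell. EGR1 to EGR4 encode zinc finger transcription factors that bind GC-rich sites, and EGR1, EGR2 and EGR3 are restrained by the corepressors NAB1 and NAB2. NR4A1, NR4A2 and NR4A3 encode orphan nuclear receptors that act without a known natural ligand, and NR4A2 (Nurr1) is required for midbrain dopamine neurons. ARC encodes a cytoskeleton-associated protein that promotes removal of AMPA receptors from synapses and is a known target of EGR factors. The values below are levels at the end of the 6 days, and the labels give no time between the last renewal of medium and harvest.

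The proximal promoters of EGR1, EGR2 and NR4A3 are shown because these 3 genes differ in their direction or in the size of their change below. RefSeq promoters (GRCh38.p14) were matched for 5 of the 8 genes: EGR1, EGR2, EGR4, NR4A1 and NR4A3. Each sequence is the 250 bases before the annotated start, 5′ to 3′ on the gene's strand, and capitals mark matches on either strand to the CArG box (the binding site of the serum response factor SRF) or to the cyclic AMP response element half-site TGACG.
EGR1 (chr5:138465229-138465478, plus strand): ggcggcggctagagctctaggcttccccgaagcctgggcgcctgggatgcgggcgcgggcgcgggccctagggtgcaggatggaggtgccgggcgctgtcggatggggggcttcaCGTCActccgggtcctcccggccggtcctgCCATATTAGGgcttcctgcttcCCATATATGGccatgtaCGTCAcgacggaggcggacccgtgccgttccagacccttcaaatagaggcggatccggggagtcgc
EGR2 (chr10:62819168-62819417, minus strand): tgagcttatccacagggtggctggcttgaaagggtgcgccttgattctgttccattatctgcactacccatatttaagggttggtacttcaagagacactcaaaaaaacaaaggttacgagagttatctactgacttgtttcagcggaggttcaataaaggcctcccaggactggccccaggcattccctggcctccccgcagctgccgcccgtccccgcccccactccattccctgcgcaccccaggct
NR4A3 (chr9:99821635-99821884, plus strand): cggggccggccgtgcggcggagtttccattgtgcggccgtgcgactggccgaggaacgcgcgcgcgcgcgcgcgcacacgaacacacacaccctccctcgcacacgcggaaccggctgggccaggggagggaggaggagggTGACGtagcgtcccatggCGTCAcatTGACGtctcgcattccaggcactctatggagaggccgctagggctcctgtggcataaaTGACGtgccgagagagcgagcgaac

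The EGR1 window held 2 CArG boxes and 2 TGACG half-sites. NR4A3 held 4 half-sites and no CArG box, EGR4 held 2 half-sites, and neither motif matched in the windows of EGR2 and NR4A1. Of 35116 promoters of the same length, 1.16% held a CArG box and 21.2% a TGACG half-site. The full element TGACGTCA (in 1.65% of promoters), the NR4A site AAAGGTCA (1.05%), the EGR sites GCGTGGGCG and GCGGGGGCG (5.37% for either) and TATAAA (10.7%) matched in none of the 5 windows. The full element contains the half-site. A missing match says only that these letters were not in the window. Other start sites of a gene were not searched.

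In GRCh38 coordinates the genes lie at chr5:138465479-138469303 (EGR1, gene 1958), chr10:62811996-62819167 (EGR2, gene 1959), chr2:73290929-73293548 (EGR4, gene 1961), chr12:52022832-52059503 (NR4A1, gene 3164), chr2:156324437-156332721 (NR4A2, gene 4929) and chr9:99821885-99866891 (NR4A3, gene 8013), with EGR3 (gene 1960) and ARC (gene 23237) on chromosome 8. RefSeq places 1 non-coding gene over EGR3 and 3 over NR4A1. Of these 4, the 2 that the count table lists had no count in any library.

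Libraries held 57222381 to 72973100 counts, and 19465 genes were tested. Both vehicle libraries differed from the 8 treated ones in the makeup of their counts. The non-coding RNA MALAT1 made up 1.25% and 0.946% of counts in vehicle and 0.342% to 0.394% in treated libraries. Genes with a count numbered 21603 and 21500 in vehicle and 22905 to 23646 in treated libraries. Whether these differences arose in the cells or in library preparation was not tested. Mitochondrially encoded transcripts made up 0.0255% and 0.0343% of counts in vehicle and 0.0825% to 0.107% in treated libraries, and the fold change of protein-coding genes against vehicle was lower at higher GC content (Spearman rho of -0.344 to -0.278 across 14822 genes, which are not independent replicates). The labels name no batch, and any batch shared by the vehicle pair cannot be told apart from treatment. When libraries were scaled by their size alone and not by TMM (a scaling to the bulk of genes), the median change over all genes was 0.14 to 0.18 higher on the log2 scale, and fold changes are relative to the TMM scale. With library size alone, 4794 genes rose and 1259 fell after DEP (1964 and 2637 with TMM), 5850 and 1699 after DProP (2864 and 3402), 5820 and 2200 after DPP (3256 and 3793) and 4605 and 1020 after Mix (1891 and 2079). Progenitor, neuron and astrocyte markers ranged widely in level. Abundant ones were NES at a mean of 1779 CPM (a gene's counts relative to the scaled size of its library), TUBB3 at 429 CPM and GFAP at 2940 CPM. The lowest of each list were HES1 at 64.5 CPM, RBFOX3 at 4.03 CPM and ALDH1L1 at 2.77 CPM. Of 7 microglia and blood markers 3 (PTPRC, AIF1 and C1QA) had no count in any library and CD14 had 9 to 24, and the list summed to 0.25 to 0.36 CPM in vehicle and 0.349 to 0.764 CPM in treated libraries. Of 5 endothelial markers PECAM1 had no count, while CDH5 had 13 to 233, VWF 30 to 75, KDR 18 to 38 and TEK 0 to 33, with a sum of 5.11 to 5.16 CPM in vehicle and 1.08 to 3.71 CPM in treated libraries.

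EGR1, EGR2 and ARC rose and NR4A1 and NR4A3 fell in each of the 4 treatments, and EGR3 rose after DPP. EGR2 and ARC changed most, and their highest levels were in the DPP libraries. NR4A1, which often responds to the same stimuli as the EGR genes, was lowest there. Against vehicle, edgeR called 3 genes higher and 2 lower of the 7 tested after DEP, DProP and Mix, and 4 higher and 2 lower after DPP. Of all tested genes 10.1% rose and 13.5% fell after DEP, 14.7% and 17.5% after DProP, 16.7% and 19.5% after DPP, and 9.71% and 10.7% after Mix. The median log2 change of the 7 genes was -0.10, 0.47, 1.09 and 0.14 in DEP, DProP, DPP and Mix, and 0.01, 0.02, 0.02 and 0.02 over all genes. These 4 comparisons share the 2 vehicle libraries. With 2 libraries per group, the values of a gene can lie apart without a difference, and the share of all genes that do so is not given here. In bulk RNA, fewer cells of a type and less RNA per cell cannot be told apart.

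**Figure D1:**
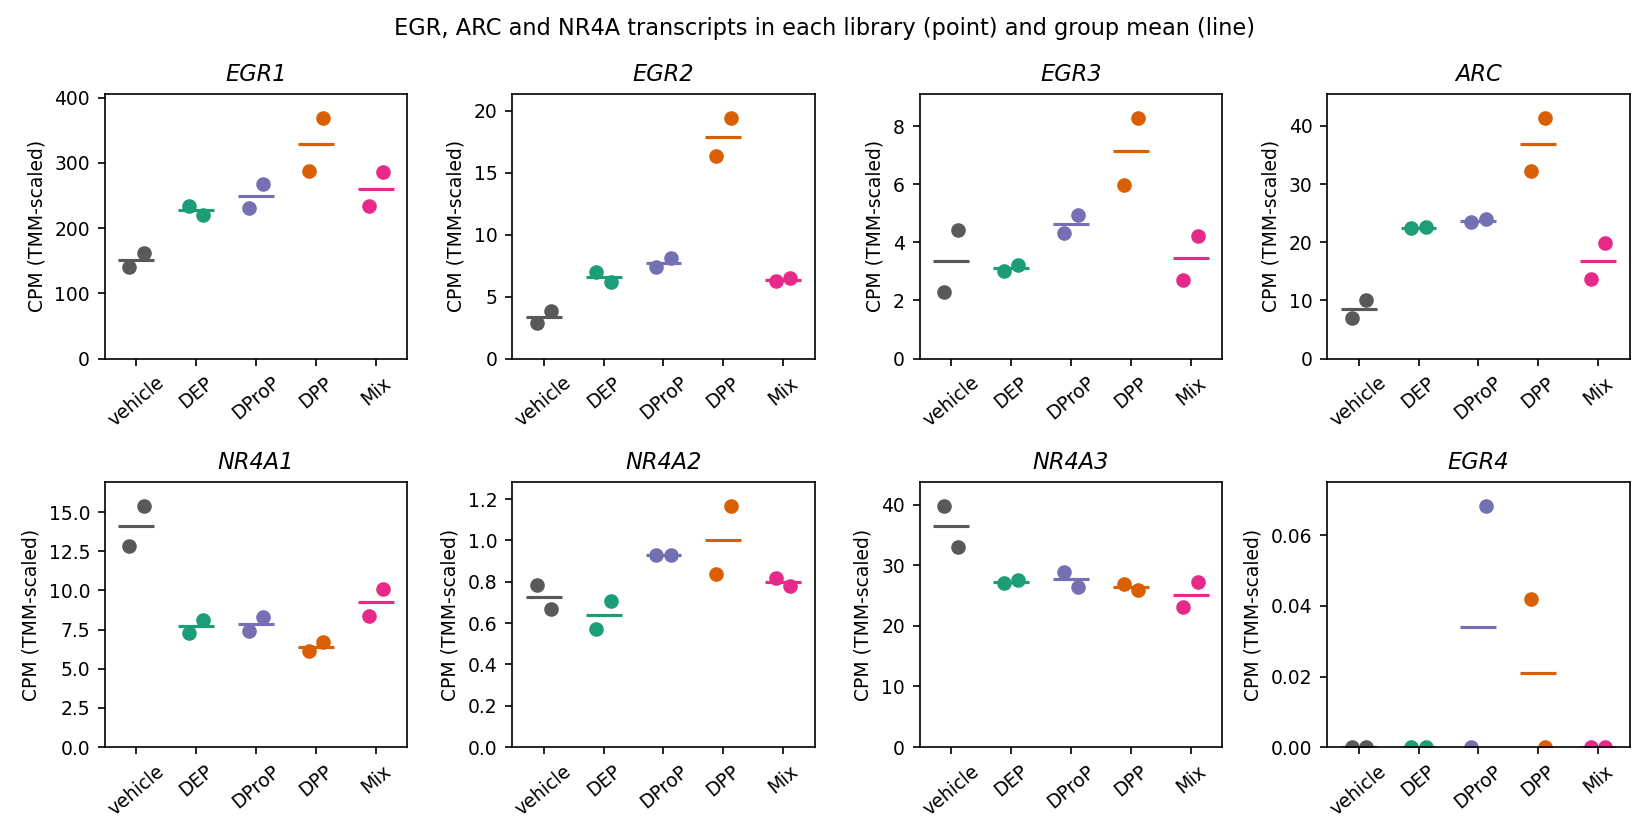
Expression of the 8 genes as TMM-scaled CPM (vertical axes, each from 0) in the 5 groups, with a point for each library and a line at the mean of the 2 libraries. EGR1, EGR2 and ARC lie above vehicle in all 8 treated libraries, NR4A1 and NR4A3 lie below it, and DPP holds the highest EGR1, EGR2, EGR3 and ARC values.

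EGR2 (Krox20), which patterns the hindbrain and drives myelination in Schwann cells, stood at 2.85 and 3.85 CPM in the vehicle libraries. It stood at 7.01 and 6.15 CPM in DEP, 7.37 and 8.13 CPM in DProP, 16.4 and 19.5 CPM in DPP and 6.25 and 6.52 CPM in Mix. All 8 treated libraries lay above both vehicle libraries, and both DPP libraries lay above the other 6. The log2 fold change against vehicle was 0.98 ± 0.16 (SE) in DEP, 1.21 ± 0.16 in DProP, 2.42 ± 0.16 in DPP and 0.93 ± 0.16 in Mix (adjusted p = 0.00134, 0.000196, 2.08e-06 and 0.00202, edgeR's quasi-likelihood test with Benjamini-Hochberg adjustment over all genes). The DPP value is a 5.36-fold increase from 3.35 ± 0.711 to 17.9 ± 2.18 CPM (SD, n = 2 libraries per group). In order of mean level the groups ran vehicle, Mix, DEP, DProP and DPP. The neighbours Mix and DEP overlapped and DEP and DProP differed by 0.24 (95% interval -0.09 to 0.56), whereas DPP exceeded its neighbour DProP by 1.21 ± 0.15 (adjusted p = 0.00897).

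ARC changed more than EGR2 in DEP, DProP and Mix by its fold change, and less in DPP, differences that were not tested. Its vehicle libraries held 6.90 and 10.03 CPM, those of DEP 22.4 and 22.6 CPM, those of DProP 23.4 and 24.0 CPM, those of DPP 32.2 and 41.4 CPM, and those of Mix 13.6 and 19.9 CPM. No treated library overlapped with vehicle, and the Mix libraries were the lowest of the treated ones. ARC rose by 1.41 ± 0.22 on the log2 scale in DEP, 1.49 ± 0.22 in DProP, 2.12 ± 0.22 in DPP and 0.99 ± 0.22 in Mix (adjusted p = 0.00232, 0.00111, 0.000126 and 0.0134). The DPP level was 4.36 times that of vehicle. The call in Mix ended without vehicle 1 (adjusted p = 0.0622). ARC is expressed mainly by neurons, and the summed level of 8 neuron markers was 1954 to 2025 CPM in vehicle against 982 to 1612 CPM in the treated libraries, so it moved opposite to ARC. Of these 8 markers 5, 7, 7 and 3 fell in DEP, DProP, DPP and Mix and none rose. Over all tested genes 13.5%, 17.5%, 19.5% and 10.7% fell. Of 7 progenitor markers 7, 7, 7 and 6 fell (7774 to 7795 CPM summed in vehicle, 4665 to 5013 CPM in treated libraries), and of 6 astrocyte markers 5, 5, 5 and 3 fell (5930 to 6197 CPM against 3094 to 3804 CPM), with none higher in either list. Of 6 tested mesenchymal markers 4 fell in each treatment and none rose (153 to 158 CPM against 72.7 to 99.6 CPM, with DCN at 0 counts). DPP, with the highest ARC, had the lowest neuron marker sum (982 to 1094 CPM), and the part of cell composition in these values was not tested.

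EGR1 (Zif268), the most widely used readout of this gene class, had by far the highest CPM of the 8 genes. Per kilobase of its longest GENCODE transcript it reached 48.1 CPM in vehicle, against 6.38 for NR4A3, 2.91 for NR4A1, 2.87 for ARC, 1.13 for EGR2, 0.774 for EGR3 and 0.209 for NR4A2. How evenly the library kit recovered different genes was not tested, so this is an order of counts and not of transcript numbers. The EGR1 level was 139.7 and 162 CPM in vehicle, 235 and 221 CPM in DEP, 231 and 267 CPM in DProP, 288 and 369.6 CPM in DPP and 234 and 286 CPM in Mix. Every treated library lay above both vehicle libraries, while DEP, DProP and Mix overlapped. EGR1 rose by 0.59 ± 0.14 in DEP, 0.72 ± 0.14 in DProP, 1.12 ± 0.14 in DPP and 0.79 ± 0.14 in Mix on the log2 scale (adjusted p = 0.0160, 0.00462, 0.000373 and 0.00534). The call in DEP ended without vehicle 1, DEP 1 or DEP 2 (adjusted p = 0.107, 0.0856 and 0.0533).

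EGR3, an activity-induced paralogue that sustains ARC transcription in neurons, had the largest standard errors of the 7 tested genes. Vehicle held 2.30 and 4.41 CPM, DEP 3.01 and 3.23 CPM, DProP 4.32 and 4.95 CPM, DPP 5.97 and 8.30 CPM and Mix 2.70 and 4.24 CPM. Only the DPP libraries lay clear of vehicle. There EGR3 rose by 1.09 ± 0.30 on the log2 scale (2.13-fold, adjusted p = 0.0159), a call that ended without vehicle 1 or DPP 2 (adjusted p = 0.0912 and 0.108). Values in the other treatments were -0.10 ± 0.30 in DEP, 0.47 ± 0.30 in DProP and 0.05 ± 0.30 in Mix (adjusted p = 0.844, 0.258 and 0.933), with intervals that reached 0.57, 1.14 and 0.72. Without vehicle 2, the DProP value became 1.01 with an adjusted p of 0.0332. EGR4 had no count in 8 libraries, 5 counts in DProP 2 and 3 counts in DPP 1. A count of 0 allows up to 3 counts, or 0.0409 to 0.0540 CPM at these depths, so no difference in EGR4 was detectable.

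NR4A1 (Nur77), a receptor linked to apoptosis and metabolism, moved the other way. It stood at 12.8 and 15.4 CPM in vehicle, 7.29 and 8.12 CPM in DEP, 7.39 and 8.33 CPM in DProP, 6.12 and 6.68 CPM in DPP and 8.39 and 10.1 CPM in Mix. All treated libraries lay below vehicle, and both DPP libraries lay below the other 6 treated libraries. On the log2 scale NR4A1 fell by 0.87 (SE 0.14) in DEP, by 0.84 (SE 0.14) in DProP, by 1.14 (SE 0.14) in DPP and by 0.61 (SE 0.14) in Mix (adjusted p = 0.00113, 0.000814, 8.37e-05 and 0.00874). The DPP mean was 0.454 times that of vehicle. The call in Mix ended without vehicle 2 or Mix 1 (adjusted p = 0.0762 and 0.0955).

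NR4A3 (NOR1) fell less, and to a similar level in the 4 treatments. Vehicle libraries held 39.8 and 33.0 CPM, DEP 27.0 and 27.6 CPM, DProP 28.9 and 26.4 CPM, DPP 26.8 and 25.8 CPM and Mix 23.0 and 27.2 CPM. The treated groups overlapped with one another, except DPP and DEP, and none overlapped with vehicle. Log2 fold changes were -0.42 ± 0.10, -0.40 ± 0.10, -0.47 ± 0.10 and -0.54 ± 0.10 in DEP, DProP, DPP and Mix (adjusted p = 0.0134, 0.0124, 0.00428 and 0.00425). Some of these calls rested on the scaling or on 1 library. With library size scaling those in DEP and DProP ended (adjusted p = 0.0820 and 0.119), as they did without vehicle 1 (0.114 and 0.112). The DEP call also ended without DEP 1 or DEP 2 (0.0893 and 0.0706), the DProP call without DProP 2 (0.0923) and the Mix call without Mix 1 (0.0545). The DPP call held in all 14 alternatives run.

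NR4A2 was scarce, with 37 to 77 counts per library. It stood at 0.783 and 0.666 CPM in vehicle, 0.572 and 0.707 CPM in DEP, 0.928 and 0.929 CPM in DProP, 0.837 and 1.17 CPM in DPP and 0.819 and 0.781 CPM in Mix. Both DProP and both DPP libraries lay above vehicle, while DEP and Mix overlapped with it. No treatment passed the test: values were -0.18 ± 0.28, 0.35 ± 0.27, 0.46 ± 0.27 and 0.14 ± 0.27 in DEP, DProP, DPP and Mix (adjusted p = 0.675, 0.346, 0.205 and 0.764), and the interval in DPP ran from -0.13 to 1.05. Of 15 genes linked to dopamine neurons, 7 had enough counts for a test, and 3, 3, 3 and 1 rose and 2 in each comparison fell (median -0.23, 0.03, 0.11 and -0.37 in DEP, DProP, DPP and Mix). Over all tested genes 9.71% to 16.7% rose and 10.7% to 19.5% fell, and with so few genes no departure from those shares is read from these counts. In this list PITX3, LMX1A, LMX1B and FOXA2 had no count in any library. TH had at most 22 counts, DDC at most 9 and SLC6A3 at most 4. EN2, a homeobox gene of the midbrain and anterior hindbrain, fell in all 4 treatments (-0.35 ± 0.06, -0.40 ± 0.06, -0.46 ± 0.06 and -0.37 ± 0.06), whereas the potassium channel gene KCNJ6 rose (0.45 ± 0.12, 0.71 ± 0.12, 0.66 ± 0.12 and 0.55 ± 0.12).

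**Figure D2:**
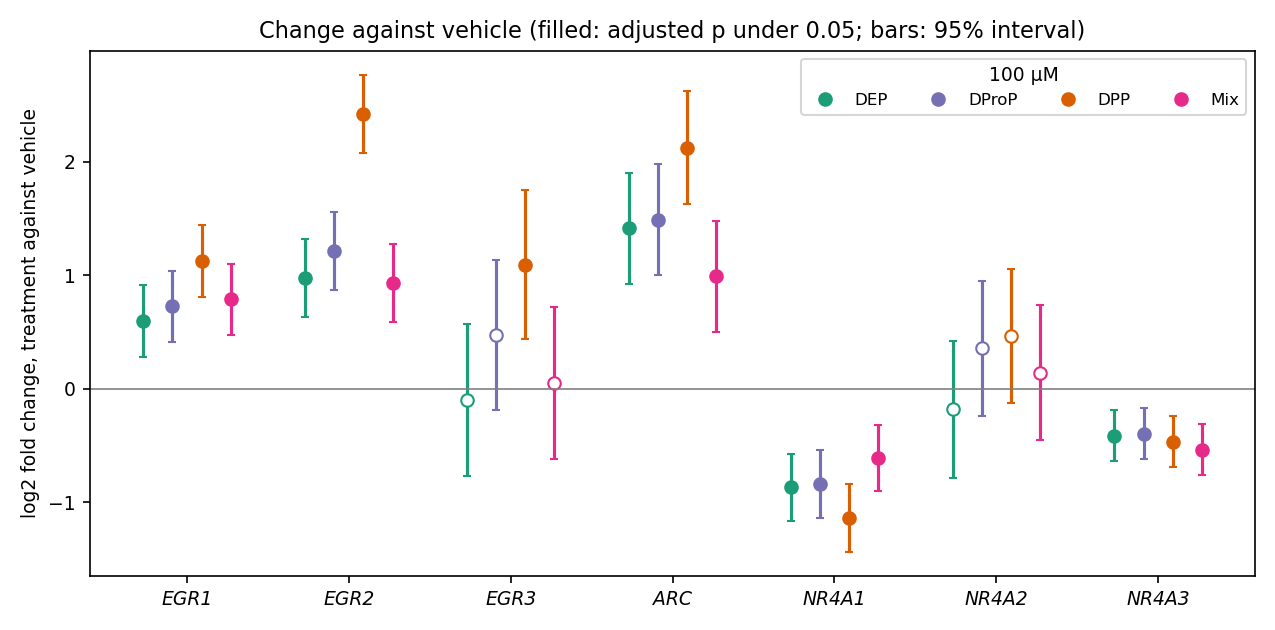
Log2 fold change against vehicle (vertical axis) of the 7 tested genes in the 4 treatments, with 95% intervals and filled points where the adjusted p is under 0.05. EGR1, EGR2 and ARC lie above 0 and NR4A1 and NR4A3 below 0 in all 4 treatments, and DPP is farthest from 0 for EGR1, EGR2, EGR3, ARC and NR4A1.

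The 7 tested genes differ in GC content, with which fold changes against vehicle moved: 66.8% in the longest transcript of ARC, 59.8% in NR4A1, 55.4% in EGR1, 51.9% in EGR3, 50.9% in EGR2, 47.9% in NR4A2 and 46.9% in NR4A3. After removal of the trend with GC content and length, each gene called against vehicle kept its direction and its call. ARC then stood at 1.74, 1.87, 2.48 and 1.30 and NR4A1 at -0.66, -0.60, -0.91 and -0.44 in DEP, DProP, DPP and Mix on the log2 scale. A fit of protein-coding genes alone, added after the data were seen, kept these calls as well.

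Comparisons between treatments set no level against vehicle, although the vehicle libraries entered the filter, the scaling and the estimate of spread. Without both vehicle libraries, 2 genes and not 1 were called between DPP and DEP and 3 and not 2 in the test among the 4 treatments, and the counts in the other 5 pairs were the same. DPP stood above DEP, DProP and Mix in EGR2, and above Mix in EGR3 and ARC, while NR4A1 was lower in DPP than in Mix. Between DEP, DProP and Mix none of the 7 genes passed edgeR's test. Over 6 pairs of treatments, 1 gene passed the threshold between DPP and DEP (2.93% of all genes), 1 between DPP and DProP (0.262%), 4 between Mix and DPP (17.3%) and 0 between DProP and DEP (0.524%), Mix and DEP (3.86%) and Mix and DProP (6.89%). At an unadjusted p under 0.05 those last 3 pairs had 0, 0 and 1 genes. DESeq2 called 0, 0 and 1, and limma-voom 0, 0 and 0. A test of any difference among the 4 treatments called 2 genes, EGR2 (adjusted p = 0.000151) and ARC (adjusted p = 0.0294), against 12.4% of all genes.

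**Figure D3:**
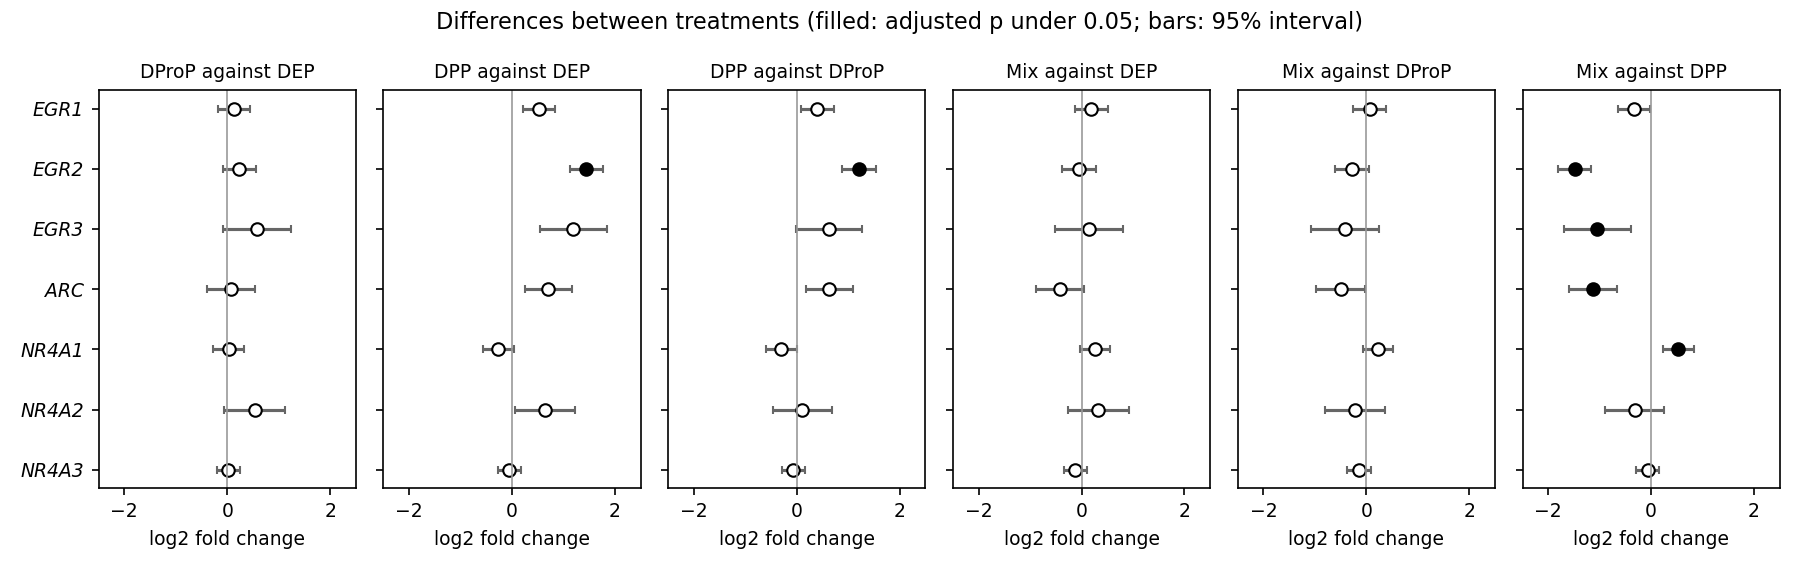
Log2 fold change (horizontal axes, first treatment over second) of the 7 genes in the 6 pairs of treatments, with 95% intervals and filled points where the adjusted p is under 0.05. EGR2 is called in each of the 3 pairs with DPP, and EGR3, ARC and NR4A1 in Mix against DPP.

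EGR2 was higher in DPP than in DEP by 1.44 ± 0.15 on the log2 scale (2.72-fold, adjusted p = 0.000879), and lower in Mix than in DPP by 1.49 (SE 0.15, adjusted p = 8.32e-05). The 2.31-fold excess of DPP over DProP lost its call without DPP 2 (adjusted p = 0.0834). ARC in Mix lay 1.13 below DPP (log2 fold change -1.13 ± 0.21, adjusted p = 0.00666) and EGR3 lay 1.04 below (-1.04 ± 0.30, adjusted p = 0.0351). NR4A1 lay above DPP in Mix by 0.53 ± 0.14 (adjusted p = 0.0211). The EGR3 call ended without DPP 2 or Mix 1 (adjusted p = 0.200 and 0.198), and the NR4A1 call without DPP 1, DPP 2 or Mix 2 (0.102, 0.0689 and 0.159).

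For DPP against DEP, EGR1 (0.53 ± 0.14), EGR3 (1.19 ± 0.30) and ARC (0.71 ± 0.20) did not pass the adjustment (adjusted p = 0.0883, 0.0625 and 0.119). Both DPP libraries lay above both DEP libraries in each, but with 2 libraries per group an exact permutation test of such a separation cannot go below 0.333. DESeq2 called all 3 (adjusted p = 0.0375, 0.00269 and 0.00265). Against DProP the DPP values were 0.40 ± 0.14 for EGR1 and 0.63 ± 0.20 for ARC (adjusted p = 0.291 and 0.254), and DESeq2 called ARC alone of these (adjusted p = 0.0238). DEP and DProP were close in EGR1 (0.13, 95% interval -0.18 to 0.44), ARC (0.07, -0.39 to 0.54), NR4A1 (0.03, -0.27 to 0.33) and NR4A3 (0.02, -0.21 to 0.24). Wider intervals left EGR3 (0.57, -0.09 to 1.23) and NR4A2 (0.54, -0.05 to 1.13) less well determined.

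In vehicle, DProP, DPP and Mix the library numbered 2 held the higher value of EGR1, EGR2, EGR3, ARC and NR4A1. In DEP they split, with EGR1 and EGR2 higher in DEP 1 and EGR3, ARC and NR4A1 higher in DEP 2, and NR4A2 and NR4A3 did not follow the other 5 in every group. Over the 10 libraries, which share their groups, Pearson's r of log2 CPM was 0.92 between EGR1 and EGR2, 0.93 between EGR2 and ARC and -0.85 between EGR2 and NR4A1. Within the 8 treated libraries it was 0.83, 0.87 and -0.76. NR4A3 and NR4A1 had an r of 0.70 over 10 libraries and -0.10 over the 8 treated ones. Among all other genes of at least 1 CPM, those most like EGR2 over the 10 libraries were NIBAN2 (r = 0.99), COPB1 (0.98) and SPRED2 (0.98), the last an inhibitor of the RAS and ERK cascade. For ARC they were CHKB, SOCS1 and SGK1 (0.99, 0.98 and 0.98), for NR4A1 SLC1A4, MLXIP and CNOT3 (0.99, 0.98 and 0.98), and for EGR1 ANAPC1, METTL7B and CASP8 (0.98, 0.97 and 0.96). All of these genes were picked for their high r over libraries that share groups, so its size is no evidence of a link.

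Among the regulators that act on these genes, SRF, which binds the CArG boxes, fell in the 4 treatments (-0.46 ± 0.07, -0.38 ± 0.07, -0.43 ± 0.07 and -0.24 ± 0.07 in DEP, DProP, DPP and Mix, adjusted p = 0.000664, 0.00122, 0.000473 and 0.0253). Of 15 transcription factors of immediate early genes, 0, 1, 0 and 1 rose and 3, 2, 3 and 3 fell. CREB1, which binds cyclic AMP response elements, stood at -0.13, -0.10, -0.17 and -0.03 without a call. Of 14 upstream kinases 2, 3, 3 and 2 rose and 0, 2, 2 and 1 fell. Over all tested genes 9.71% to 16.7% rose and 10.7% to 19.5% fell in these comparisons, and with so few genes per list no departure from those shares is read from either count. The corepressor gene NAB1 fell in DEP, DProP and DPP (-0.29 ± 0.07, -0.23 ± 0.07 and -0.40 ± 0.07, adjusted p = 0.0147, 0.0331 and 0.00160). NAB2, a corepressor that EGR factors also induce, fell in DEP (-0.35 ± 0.10, adjusted p = 0.0221) and stood at -0.05, -0.08 and -0.25 in DProP, DPP and Mix. Among 9 reported EGR targets none, 1, 1 and none rose and 4, 2, 4 and 0 fell in DEP, DProP, DPP and Mix (median -0.28, -0.05, -0.20 and -0.05), a count that is likewise read only beside the shares over all genes.

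Of 35 other immediate early genes the test called 8 higher and 5 lower in DEP, 11 and 7 in DProP, 20 and 4 in DPP and 5 and 5 in Mix, with medians of 0.13, 0.14, 0.49 and 0.00. Over all tested genes the shares were 10.1% higher and 13.5% lower in DEP, 14.7% and 17.5% in DProP, 16.7% and 19.5% in DPP and 9.71% and 10.7% in Mix, so the lower counts in DEP and DProP and both counts in Mix lay near the background. FOS, a partner of JUN in AP-1, rose in all 4 (0.46 ± 0.10, 0.73 ± 0.10, 1.01 ± 0.10 and 0.52 ± 0.10), and so did JUNB (1.07 ± 0.14, 1.17 ± 0.14, 1.55 ± 0.14 and 0.89 ± 0.14). The 3 most abundant genes of the list were mixed. JUN rose in DEP and DPP (0.23 and 0.62), ZFP36L1 fell in DProP (-0.25) and MCL1 fell in Mix (-0.18), with no other call against vehicle. CCN1, named after its values were seen, fell in all 4 (-1.37, -1.35, -1.26 and -1.41). NPAS4, a neuronal factor induced by calcium influx, fell in DEP, DProP and DPP (-2.20 ± 0.53, -1.43 ± 0.50 and -1.46 ± 0.50, adjusted p = 0.0114, 0.0474 and 0.0397) at a mean of 0.554 CPM. Between treatments, 9 of the 35 were higher in DPP than in DEP and 4 higher than in DProP, with none lower, and 22 were lower and none higher in Mix than in DPP. Of all tested genes 2.93%, 0.262% and 17.3% were called in these 3 pairs, in either direction. With library size scaling the counts against vehicle were 16 and 3 in DEP, 17 and 3 in DProP, 24 and 1 in DPP and 8 and 3 in Mix. Leaving out vehicle 1 gave 4 higher in DEP, 7 in DProP and 3 in Mix. Without DEP 1 the count in DEP was also 4, and without vehicle 2 or Mix 2 that in Mix was 3. Leaving out 1 library also lowered the counts of fallen genes to as few as 1 in DEP (without DEP 2), 4 in DProP, 1 in DPP (without DPP 2) and 1 in Mix (without Mix 1).

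Late activity-regulated neuronal genes, which follow immediate early factors by hours, had 7 tested members of 10, of which 3, 4, 5 and 3 rose in DEP, DProP, DPP and Mix and none fell. Over all tested genes 10.1%, 14.7%, 16.7% and 9.71% rose and 13.5%, 17.5%, 19.5% and 10.7% fell. Whether these 7 genes depart from those shares was not tested. SCG2, which encodes the granin secretogranin II, rose in all 4 (0.97 ± 0.09, 1.09 ± 0.09, 1.39 ± 0.09 and 1.24 ± 0.09). BDNF, a neurotrophin gene, was the other called in all 4 (0.68, 0.89, 1.53 and 0.46), and in DPP the remaining 3 were VGF (1.95), INHBA (1.24) and NRN1 (0.33). VGF rose in DEP and DProP as well (0.99 and 0.73), NRN1 in DProP (0.31) and PCSK1, which encodes a prohormone convertase, in Mix (1.31). BDNF, VGF, INHBA and PCSK1 were named after their values were seen. The abundant pentraxin gene NPTX2 stood at -0.24, -0.24, -0.22 and -0.20 without a call. Only 1 gene rose in DEP without vehicle 2 or DEP 2, and only 1 in Mix without vehicle 1, Mix 1 or Mix 2 or by DESeq2. In DProP the count became 2 without vehicle 2 or DProP 2.

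**Figure D4:**
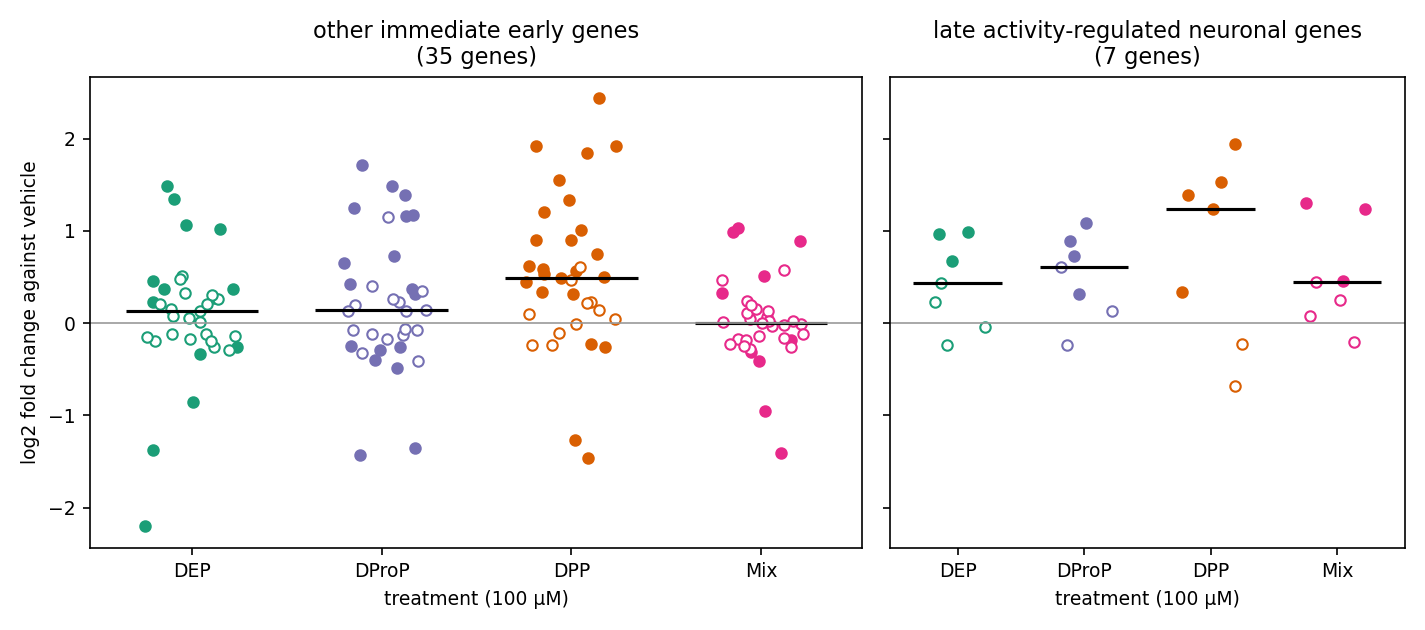
Log2 fold change against vehicle (vertical axis) of 35 other immediate early genes and 7 late activity-regulated neuronal genes in each treatment, with filled points where the adjusted p is under 0.05 and a line at the median. The medians are highest in DPP, at 0.49 and 1.24.

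The lists linked to EGR2 and ARC held genes called in both directions, in counts too small to set against the shares over all genes. Of 11 hindbrain and myelin genes tied to EGR2, 9 were tested, and 2 rose in each treatment while 3, 4, 2 and 3 fell in DEP, DProP, DPP and Mix. HOXB2, a hindbrain gene under EGR2 control, fell in all 4 (-0.31 ± 0.06, -0.46 ± 0.06, -0.27 ± 0.06 and -0.30 ± 0.06). Of 9 synaptic genes linked to ARC, 8 were tested, and 2, 1, 3 and 2 rose while 3 fell in each. GRIA1, an AMPA receptor subunit gene, fell by 0.42, 0.29, 0.45 and 0.52 on the log2 scale. Of 6 genes for proteins that bind AU-rich elements of short-lived messengers, 0, 0, 1 and 0 rose and 1, 3, 1 and 0 fell. Of 7 heat shock genes, which respond to handling stress, 1, 0, 2 and 0 rose and 4, 5, 3 and 3 fell. Their summed level was 1597 to 1705 CPM in vehicle against 1201 to 1486 CPM in the treated libraries. Over all tested genes 9.71% to 16.7% rose and 10.7% to 19.5% fell, and departures of these small lists from those shares were not tested.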

How the data were processed

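The authors deposited raw read counts per gene, neither normalised nor filtered. The submitters' processing notes name the build GRCh38 and, in no stated order, edgeR 4.0.9, StringTie 2.1.3b, R 4.3.2, HISAT2 2.1.0, FastQC and Trimmomatic 0.38. Annotation release, strand setting and treatment of multimapping reads were not given in the sources used here. Libraries were made with SureSelect RNA Direct, per the labels. Tests used R 4.3.3 with edgeR 4.0.16. Genes were filtered by group (filterByExpr), scaled by TMM and fitted with 1 mean per group over all 10 libraries (robust quasi-likelihood, 5 residual degrees of freedom). Adjusted p-values follow Benjamini and Hochberg over 19465 genes per comparison, with a threshold of 0.05. The standard error is the log2 fold change divided by the square root of F. With 2 libraries per group an exact permutation test cannot go below 0.333. GC content and length come from the longest GENCODE v29 transcript (86.1% of tested genes had both). The members and lists were chosen with earlier results of these data known. All 8 members, the 3 most abundant tested genes of each list, 6 further genes (SRF, NAB1, NAB2, FOS, JUNB, NPAS4) and the 3 genes most correlated with a member were eligible to be named. On simulated counts for DEP against vehicle with 92 genes changed by 1 on the log2 scale edgeR called 66.3%, with 106 changed by 0.5 it called 35.8%, and of 18776 unchanged genes 0.0107%. Libraries of a group differed by more than sampling noise (chi-square per degree of freedom from 10.6 to 20.2). Alternatives were other scalings, filters, limma-voom 3.58.1, DESeq2 1.42.0, fits of 2 groups, a replicate block, a GC and length correction (lowess span 0.3) and leaving out each library. Chosen after seeing the data were fits of protein-coding genes alone and of treated libraries alone.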

Additional observations from a re-analysis of the deposited data

How the results depend on the processing

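Over the alternatives, EGR2, ARC and NR4A1 kept their direction against vehicle in every treatment. Calls against vehicle that changed are given beside the genes above. EGR3 changed sign where it was not called: in DEP it became 0.0574 with library size alone and ran from -0.50 (without vehicle 1) to 0.44 (without vehicle 2), and in Mix it ran from -0.35 (without vehicle 1) to 0.59 (without vehicle 2), with -0.31 without Mix 2. The number of members called for DPP against DEP rose from 1 to 2 with the GC and length correction, with protein-coding genes alone and without both vehicle libraries, to 3 in a fit of the 2 groups and to 4 with DESeq2. With DESeq2 it was 2 for DPP against DProP and 1 for Mix against DProP. With the replicate number as a block, 4 members were called for DPP against DEP, 1 for Mix against DProP and 5 for any difference among treatments. The block also called EGR1 between Mix and DPP (adjusted p = 0.0276). The shared numbers were not taken as pairs, since deviations of same-numbered libraries over all tested genes correlated at only -0.0465 to 0.0471 over 10 pairs of groups. EGR1, EGR2, EGR3, ARC and NR4A1 were nonetheless higher in the library numbered 2 in vehicle, DProP, DPP and Mix. The calls of members between treatments depended on this choice. Leaving out 1 library gave 3 to 5 members for DEP against vehicle, 4 to 6 for DProP, 5 to 6 for DPP and 3 to 5 for Mix against vehicle, 1 to 2 for DPP against DEP, 0 to 1 for DPP against DProP, 2 to 4 for Mix against DPP and 1 to 3 for any difference among treatments. A library left alone in its group is assumed to vary like the others. Over all genes the number called ran from 2075 to 6053 for DEP against vehicle, 3976 to 7549 for DProP, 4343 to 8020 for DPP and 1569 to 5625 for Mix. Between treatments it ran from 9 to 612 (DProP and DEP), 80 to 1132 (DPP and DEP), 5 to 399 (DPP and DProP), 33 to 1602 (Mix and DEP), 382 to 1920 (Mix and DProP) and 1498 to 4202 (Mix and DPP). Depth limits EGR4 and NR4A2.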
